A study of Mus musculus with 8 samples.

Results

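The 50 genes described here encode the machinery of cell division: the cyclins and kinases that start mitosis, the spindle assembly checkpoint, the kinetochore, the chromosomal passenger complex, spindle motors, cytokinesis proteins, anaphase regulators and chromosome proteins. They were chosen by name and not by a rule on measured values, but with earlier results of these data known. Each was read by the brightest of the non-control probes that carry its name. All 50 of 50 were measured, among 21519 genes tested, and each probe used lay well above background on all 8 arrays, so none entered through 1 group alone. Levels are log2 of the background-subtracted array signal minus the 75th percentile of the same array. Because probes differ in brightness, levels are compared between arrays for 1 gene and never between genes.

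The samples were CD4+ T cells of C57BL/6 mice, 8 samples in 4 groups of 2, each on its own one-colour array. Host mice bore MCA205-OVA, an ovalbumin (OVA)-expressing fibrosarcoma line, or had no tumour. Mice of all 4 groups were given transgenic CD4+ T cells that recognise OVA and were immunised with dendritic cells carrying OVA peptide. An antibody to the receptor of IL-6 (anti-IL-6R) was injected at immunisation, or a control antibody was given, and the cells were collected 4 days later. The groups are called tumour-free control (arrays 1 and 2), tumour-bearing control (arrays 3 and 4), tumour-free anti-IL-6R (arrays 5 and 6) and tumour-bearing anti-IL-6R (arrays 7 and 8). The series asks how IL-6 restrains T helper type 1 responses in mice with tumours, and its stated contrasts are tumour-bearing against tumour-free hosts, and anti-IL-6R against control antibody within tumour-bearing hosts. The labels describe no separation of transferred from host CD4+ T cells. The sources used here give no mouse age, no number of mice per sample, no cell purity and no antibody dose. Each condition was run in 2 independent experiments, per the series' design text, without a statement of which arrays belong together.

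As background, a T cell that meets its antigen leaves the resting state and divides within days. Transcripts of mitotic proteins rise as cells approach division and are then low again in the next resting phase, so their abundance in a population is widely used as a readout of cycling cells. Many mitotic genes carry a promoter element called the CHR (cell cycle genes homology region), through which the DREAM complex represses them in resting cells and MuvB-containing complexes activate them before mitosis. Many also carry CCAAT boxes, which the activating factor NF-Y binds.

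The promoters show what the genes share in sequence. The RefSeq promoter table of build GRCm38.p6, with windows of 250 bases before and 50 bases after a start, held 45 windows for 40 of the 50 genes. The CHR core TTTGAA, which reads TTCAAA on the other strand, lay in a window of 29 of the 40 (72.5%), against 5878 of all 32851 windows (17.9%) and 1938 of the 12428 tested genes with a window (15.6%). The CCAAT motif, which reads ATTGG on the other strand, was in 31 of 40 (77.5%), against 37.4% of all windows and 42.7% of tested genes. Both together were in 26 of 40 (65%), against 6.95% of all windows and 6.31% of tested genes. In 1 of the 45 windows a TTTGAA and a CCAAT overlapped. The variant TTCGAA, which reads the same on both strands, was found in 4 of 40 (10%), against 1.56% of all windows and 2.37% of tested genes. Matches were sought on both strands anywhere in the window, and a match is a run of letters, not a shown binding site.

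The 8 stretches below are the 150 bases before the start, 5′ to 3′ on the strand of the gene, with TTTGAA and CCAAT matches on either strand in capitals. The first 5, Cdk1, Cdc20, Mki67, Kif11 and Prc1, hold both motifs and belong to genes that fell with anti-IL-6R in tumour-bearing mice. Ccnb1 fell too but holds CCAAT without TTTGAA here. Bub3 holds both motifs and Pttg1 neither, and those genes passed in no comparison.
Cdk1 (chr10:69352913-69353062, minus strand): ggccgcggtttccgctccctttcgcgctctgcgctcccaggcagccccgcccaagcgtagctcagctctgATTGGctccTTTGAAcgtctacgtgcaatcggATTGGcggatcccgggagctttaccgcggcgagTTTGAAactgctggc
Cdc20 (chr4:118437344-118437493, minus strand): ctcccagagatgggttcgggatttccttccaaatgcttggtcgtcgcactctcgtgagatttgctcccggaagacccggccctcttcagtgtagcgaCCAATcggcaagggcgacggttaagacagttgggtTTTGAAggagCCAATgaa
Mki67 (chr7:135716380-135716529, minus strand): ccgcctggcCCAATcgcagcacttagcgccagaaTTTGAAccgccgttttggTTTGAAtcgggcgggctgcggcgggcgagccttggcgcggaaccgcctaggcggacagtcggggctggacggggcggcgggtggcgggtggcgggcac
Kif11 (chr19:37376232-37376381, plus strand): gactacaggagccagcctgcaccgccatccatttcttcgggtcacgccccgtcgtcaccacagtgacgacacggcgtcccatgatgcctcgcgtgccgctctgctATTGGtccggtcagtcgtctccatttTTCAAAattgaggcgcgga
Prc1 (chr7:80294326-80294475, plus strand): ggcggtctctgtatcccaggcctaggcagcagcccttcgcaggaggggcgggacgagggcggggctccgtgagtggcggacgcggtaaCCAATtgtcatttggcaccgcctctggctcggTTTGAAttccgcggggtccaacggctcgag
Ccnb1 (chr13:100786487-100786636, minus strand): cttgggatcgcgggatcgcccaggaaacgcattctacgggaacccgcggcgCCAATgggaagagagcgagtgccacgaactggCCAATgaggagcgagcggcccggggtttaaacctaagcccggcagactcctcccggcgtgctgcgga
Bub3 (chr7:131560220-131560369, plus strand): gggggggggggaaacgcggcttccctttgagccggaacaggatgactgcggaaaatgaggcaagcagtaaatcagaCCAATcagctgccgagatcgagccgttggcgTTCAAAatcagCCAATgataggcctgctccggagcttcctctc
Pttg1 (chr11:43425982-43426131, minus strand): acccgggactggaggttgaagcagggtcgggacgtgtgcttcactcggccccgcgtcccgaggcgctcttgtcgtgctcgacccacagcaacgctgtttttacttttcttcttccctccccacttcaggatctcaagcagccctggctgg
Among the 29 genes with TTTGAA, 23 were lower with anti-IL-6R in tumour-bearing mice, with a median change of -0.77. Among the 11 without it 9 were, with a median of -0.80. Bub3 held it and changed by -0.19 ± 0.08 (SE), while Ccnb1 did not hold it in its window and changed by -1.05 ± 0.18.

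Mitotic genes were higher in the CD4+ T cell samples of tumour-bearing than of tumour-free mice given control antibody. In all, 21 of the 50 rose and 0 fell at an adjusted p under 0.05 (limma, Benjamini-Hochberg over all 21519 genes), where 4.26% of all genes tested rose and 1.97% fell. Their rises ran from 1.29-fold for Mad2l1 to 1.71-fold for Mki67, and 49 of 50 changes were above 0, as were 54.9% of those of all genes. The median change of the 50 was 0.54, against 0.03 over all genes tested, with standard errors between 0.08 and 0.27. The 2 tumour-bearing arrays lay above both tumour-free arrays for 49 of 50 genes, where 30% of all genes did so.

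With anti-IL-6R in tumour-bearing mice the same machinery was lower. Here 40 of the 50 fell and 0 rose, where 3.82% of all genes tested fell and 2.04% rose, and the 40 reached between 0.455 (Cdc25c) and 0.746 (Smc2) of their level under control antibody. The median change was -0.79, against -0.05 over all genes. Both antibody-treated arrays lay below both control arrays for 48 of 50, where 36.3% of all genes did so. Both comparisons use arrays 3 and 4, so they are not independent of each other. The tumour-bearing control arrays were the highest 2 of all 8 for 47 of the 50 genes, where 17.2% of all genes had that order. In these bulk samples fewer dividing cells, less transcript per cell and a change in which cells the samples held cannot be told apart. Markers of other cell types, given further below, moved between these groups too.

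The counts of genes past the threshold rested on single arrays. With all 8 arrays, 45 of the 50 had an unadjusted p under 0.05 for the tumour, beside 5303 of all 21519 genes. For the antibody 44 of the 50 did, beside 6303 of all genes. In the 8 refits without 1 array the direction of each gene stayed the same in both comparisons, except for the antibody change of Smc4, which was near 0 throughout. In tumour-bearing mice the count lower with anti-IL-6R was 0 without array 3 (smallest adjusted p 0.0559, with 42 genes at an unadjusted p under 0.05) and 0 without array 8 (smallest 0.0722, with 45), and 26 to 40 without any other array. The count higher in tumour-bearing control mice was 0 without array 2 or 3, 2 without array 1 and 10 to 29 without any other, with 30 to 45 genes at an unadjusted p under 0.05. None of the 40 and none of the 21 stayed past the threshold in all 8 refits. The median change stayed between 0.45 and 0.66 for tumour-bearing against tumour-free, and between -0.88 and -0.68 for the antibody effect.

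**Figure D1:**
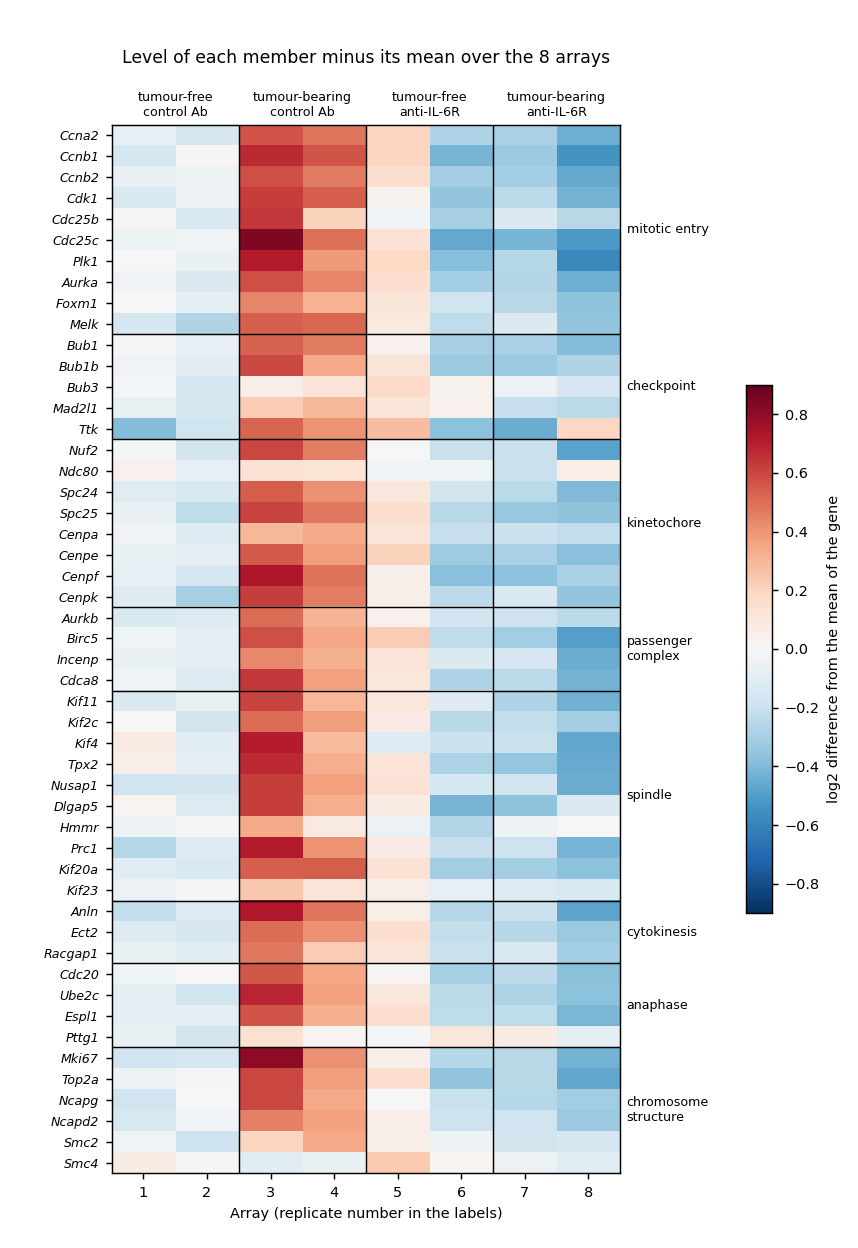
Heat map of the 50 genes (rows, grouped by role) on the 8 arrays (columns, grouped by host and antibody); colour is the log2 level minus the mean of the gene over the 8 arrays. Arrays 3 and 4, from tumour-bearing control mice, are the highest 2 for 47 of the 50 rows, and array 5 is above array 6 in 49.

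In the paragraphs on each role, levels are given for the 2 arrays of each group in the order of the array numbers. A change is a difference of mean log2 levels ± its standard error from limma, first tumour-bearing minus tumour-free under control antibody (the tumour change), then anti-IL-6R minus control antibody in tumour-bearing mice (the antibody change). Adjusted p-values are limma's over all 21519 genes.

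Of the 10 genes of mitotic entry, 4 rose with the tumour and 9 fell with the antibody. The kinase Cdk1, whose activity starts mitosis, read -0.68 and -0.59 in tumour-free control, 0.08 and -0.01 in tumour-bearing control, -0.51 and -0.90 in tumour-free anti-IL-6R and -0.78 and -0.97 in tumour-bearing anti-IL-6R cells. Both tumour-bearing control arrays were above all others, and the lowest array was from the antibody-treated tumour-bearing mice. Its changes were 0.67 ± 0.15 (adjusted p = 0.0378) for tumour and -0.91 ± 0.15 (adjusted p = 0.0253) for anti-IL-6R. Cyclin A2 (Ccna2), the partner of Cdk1 in late S and G2 phase, read 1.96 and 1.88 in tumour-free control, 2.60 and 2.51 in tumour-bearing control, 2.23 and 1.76 in tumour-free anti-IL-6R and 1.74 and 1.60 in tumour-bearing anti-IL-6R cells. The cyclins B1 and B2, which carry Cdk1 through mitotic entry, were likewise highest on both tumour-bearing control arrays and lowest on average in the antibody-treated tumour-bearing mice. Ccnb1 read 1.72 and 1.61 on the tumour-bearing control arrays, 0.72 and 0.51 with anti-IL-6R in the same host, and 0.89 and 1.06 (control) and 1.24 and 0.63 (anti-IL-6R) without a tumour. Ccnb2 read 3.59 and 3.48 on the tumour-bearing control arrays, 2.71 and 2.56 with anti-IL-6R in the same host, and 2.95 and 2.97 (control) and 3.16 and 2.70 (anti-IL-6R) without a tumour. The tumour changes were 0.63 ± 0.14 for Ccna2 (adjusted p = 0.0427), 0.69 ± 0.18 for Ccnb1 (adjusted p = 0.0647) and 0.58 ± 0.14 for Ccnb2 (adjusted p = 0.04902), so Ccnb1 did not pass. Their antibody changes were -0.89 ± 0.14, -1.05 ± 0.18 and -0.90 ± 0.14, all past the threshold (adjusted p = 0.0253, 0.0267 and 0.0242).

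Polo-like kinase 1 (Plk1), which acts at centrosomes, kinetochores and the midbody, read 2.55 and 2.49 in tumour-free control, 3.27 and 2.93 in tumour-bearing control, 2.73 and 2.16 in tumour-free anti-IL-6R and 2.29 and 1.97 in tumour-bearing anti-IL-6R cells. Its tumour-free anti-IL-6R arrays lay furthest apart, and both tumour-bearing control arrays were above all others. Its changes were 0.58 ± 0.19 (adjusted p = 0.118) for tumour and -0.97 ± 0.19 (adjusted p = 0.0349) for anti-IL-6R. Foxm1, the transcription factor that switches on many genes of G2 and mitosis, read 0.79 and 0.66 on the tumour-bearing control arrays, 0.09 and -0.01 with anti-IL-6R in the same host, and 0.35 and 0.26 (control) and 0.46 and 0.17 (anti-IL-6R) without a tumour. Its changes, 0.42 ± 0.12 and -0.68 ± 0.12 (adjusted p = 0.0791 and 0.0265), passed in the antibody comparison only, and the difference between the comparisons was not tested. The kinase Melk read -0.72 and -0.83 in tumour-free control, -0.03 and -0.05 in tumour-bearing control, -0.48 and -0.79 in tumour-free anti-IL-6R and -0.70 and -0.92 in tumour-bearing anti-IL-6R cells. Melk had the clearest tumour change of this role, 0.74 ± 0.14 (adjusted p = 0.0234), and an antibody change of -0.77 ± 0.14 (adjusted p = 0.0268). The phosphatase Cdc25c, which removes the inhibitory phosphates from Cdk1, had the largest antibody change of all 50, -1.13 ± 0.20 (adjusted p = 0.0268), and a tumour change of 0.71 ± 0.20 that did not pass. Its relative Cdc25b passed in neither, at 0.48 ± 0.15 and -0.61 ± 0.15 (adjusted p = 0.106 and 0.0548). The centrosomal kinase Aurka changed by 0.59 ± 0.15 and -0.86 ± 0.15 and passed with the antibody (adjusted p = 0.0256).

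**Figure D2:**
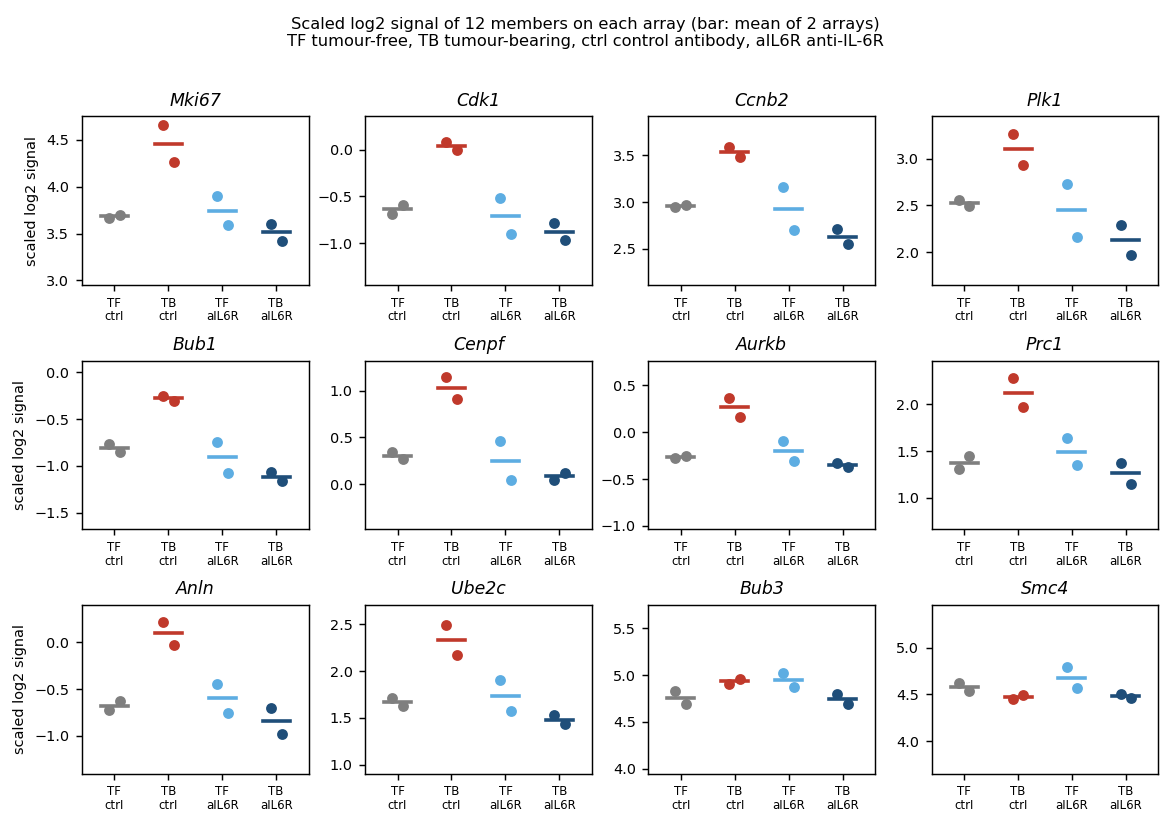
Scaled log2 signal (y axis, a window of equal width around the mean of each gene) of 12 genes on each array, by group (x axis); points are arrays and bars are means of 2 arrays. In 10 panels the tumour-bearing control points are the highest, as for Mki67 at 4.66 and 4.26, and in the panels of Bub3 and Smc4 they are not.

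The spindle assembly checkpoint delays anaphase until every chromosome is attached. Of its 5 genes, 1 rose with the tumour and 3 fell with the antibody. Mad2l1, which encodes the MAD2 protein that blocks the anaphase-promoting complex, read 1.64 and 1.56 in tumour-free control, 1.93 and 2.01 in tumour-bearing control, 1.81 and 1.74 in tumour-free anti-IL-6R and 1.50 and 1.46 in tumour-bearing anti-IL-6R cells. Its groups did not overlap in either comparison, and its changes were 0.37 ± 0.08 (adjusted p = 0.0351) for tumour and -0.49 ± 0.08 (adjusted p = 0.0253) for anti-IL-6R. Bub1, a kinase at the outer kinetochore, read -0.25 and -0.31 on the tumour-bearing control arrays, -1.07 and -1.16 with anti-IL-6R in the same host, and -0.76 and -0.85 (control) and -0.74 and -1.08 (anti-IL-6R) without a tumour. Bub1b, the checkpoint protein known as BubR1, read -0.39 and -0.64 on the tumour-bearing control arrays, -1.31 and -1.25 with anti-IL-6R in the same host, and -1.01 and -1.08 (control) and -0.87 and -1.32 (anti-IL-6R) without a tumour. Both were highest on the tumour-bearing control arrays. The antibody changes were -0.84 ± 0.14 for Bub1 (adjusted p = 0.0253) and -0.77 ± 0.17 for Bub1b (adjusted p = 0.0405), and their tumour changes of 0.53 ± 0.14 and 0.53 ± 0.17 did not pass.

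Bub3, the adaptor that brings Bub1 and BubR1 to kinetochores, differed little. It read 4.83 and 4.69 in tumour-free control, 4.91 and 4.96 in tumour-bearing control, 5.02 and 4.87 in tumour-free anti-IL-6R and 4.80 and 4.69 in tumour-bearing anti-IL-6R cells. Here array 5, from a tumour-free mouse group, was the highest of the 8, and the tumour-bearing control arrays were not set apart. Its changes were 0.18 ± 0.08 (adjusted p = 0.238) for tumour and -0.19 ± 0.08 (adjusted p = 0.174) for anti-IL-6R. The kinase Ttk, which starts checkpoint signalling, had the widest spread of the role. It changed by 0.75 ± 0.27 and -0.59 ± 0.27 (adjusted p = 0.133 and 0.18), and its treated arrays stood at -2.30 and -1.67.

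Centromere and kinetochore genes build the attachment site of the spindle. Of 8, 5 rose with the tumour and 7 fell with the antibody. Spc24, a subunit of the NDC80 complex that holds microtubules, read 0.94 and 0.91 in tumour-free control, 1.59 and 1.46 in tumour-bearing control, 1.14 and 0.88 in tumour-free anti-IL-6R and 0.80 and 0.65 in tumour-bearing anti-IL-6R cells. Its partner Spc25 read 2.91 and 2.78 on the tumour-bearing control arrays, 1.97 and 1.95 with anti-IL-6R in the same host, and 2.25 and 2.08 (control) and 2.46 and 2.06 (anti-IL-6R) without a tumour. Both showed tumour-bearing control on top and tumour-bearing anti-IL-6R at the bottom, with no overlap between these groups. Spc24 changed by 0.60 ± 0.11 (adjusted p = 0.0228) for tumour and -0.80 ± 0.11 (adjusted p = 0.0242) for anti-IL-6R. Spc25 changed by 0.68 ± 0.13 (adjusted p = 0.0264) for tumour and -0.89 ± 0.13 (adjusted p = 0.0242) for anti-IL-6R. Nuf2, another subunit, changed by 0.62 ± 0.13 and -0.87 ± 0.13 (adjusted p = 0.036 and 0.0242). The fourth subunit, Ndc80 itself, passed in neither comparison, at 0.14 ± 0.12 and -0.20 ± 0.12 (adjusted p = 0.527 and 0.311), and its 8 arrays lay between -0.89 and -0.56.

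Cenpf, a large kinetochore protein made in G2 and mitosis, read 0.34 and 0.27 in tumour-free control, 1.15 and 0.91 in tumour-bearing control, 0.46 and 0.04 in tumour-free anti-IL-6R and 0.05 and 0.12 in tumour-bearing anti-IL-6R cells. Cenpk, a subunit of the constitutive centromere network, read -0.28 and -0.46 in tumour-free control, 0.46 and 0.30 in tumour-bearing control, -0.10 and -0.39 in tumour-free anti-IL-6R and -0.30 and -0.51 in tumour-bearing anti-IL-6R cells. For both, the tumour-bearing control arrays were the highest 2. Cenpf changed by 0.72 ± 0.15 (adjusted p = 0.031) for tumour and -0.94 ± 0.15 (adjusted p = 0.0252) for anti-IL-6R. Cenpk had the smallest adjusted p of the 50 in the tumour comparison, with 0.75 ± 0.14 (adjusted p = 0.0225) for tumour and -0.79 ± 0.14 (adjusted p = 0.0268) for anti-IL-6R. The centromeric histone gene Cenpa and the kinetochore kinesin gene Cenpe passed in the antibody comparison only, at -0.53 ± 0.11 and -0.80 ± 0.16 (adjusted p = 0.037 and 0.033), with tumour changes of 0.39 ± 0.11 and 0.54 ± 0.16.

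The chromosomal passenger complex corrects wrong attachments and later guides cytokinesis. All 4 of its genes fell with the antibody and 1, Aurkb, rose with the tumour. Aurkb, the kinase of the complex, read -0.28 and -0.25 in tumour-free control, 0.37 and 0.16 in tumour-bearing control, -0.10 and -0.31 in tumour-free anti-IL-6R and -0.33 and -0.37 in tumour-bearing anti-IL-6R cells. Arrays 3 and 4 were its highest 2 and the other 6 lay within -0.37 to -0.10. Its changes were 0.53 ± 0.12 (adjusted p = 0.038) for tumour and -0.61 ± 0.12 (adjusted p = 0.0298) for anti-IL-6R. Birc5, which encodes survivin, read 4.89 and 4.65 on the tumour-bearing control arrays, 3.99 and 3.81 with anti-IL-6R in the same host, and 4.27 and 4.22 (control) and 4.53 and 4.08 (anti-IL-6R) without a tumour. Incenp, the scaffold that activates the kinase, read 4.46 and 4.35 on the tumour-bearing control arrays, 3.87 and 3.58 with anti-IL-6R in the same host, and 3.96 and 3.94 (control) and 4.14 and 3.89 (anti-IL-6R) without a tumour. Cdca8, which encodes borealin, read 3.33 and 3.07 on the tumour-bearing control arrays, 2.46 and 2.28 with anti-IL-6R in the same host, and 2.66 and 2.58 (control) and 2.80 and 2.42 (anti-IL-6R) without a tumour. In each of these, both treated arrays lay below both control arrays of tumour-bearing mice. The antibody changes were -0.87 ± 0.15, -0.68 ± 0.12 and -0.83 ± 0.14 (adjusted p = 0.0256, 0.0264 and 0.0256). Their tumour changes of 0.53 ± 0.15, 0.45 ± 0.12 and 0.58 ± 0.14 missed the threshold, with adjusted p between 0.0511 and 0.076.

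Spindle motors and microtubule-bound proteins made up 10 genes, of which 3 rose with the tumour and 6 fell with the antibody. Kif11, the kinesin that pushes the spindle poles apart, read -1.56 and -1.50 in tumour-free control, -0.82 and -1.13 in tumour-bearing control, -1.33 and -1.54 in tumour-free anti-IL-6R and -1.70 and -1.86 in tumour-bearing anti-IL-6R cells. Its changes were 0.55 ± 0.15 (adjusted p = 0.0741) for tumour and -0.81 ± 0.15 (adjusted p = 0.0303) for anti-IL-6R. Prc1, which bundles antiparallel microtubules of the midzone, read 1.31 and 1.45 in tumour-free control, 2.28 and 1.97 in tumour-bearing control, 1.64 and 1.35 in tumour-free anti-IL-6R and 1.38 and 1.15 in tumour-bearing anti-IL-6R cells. Prc1 stood highest on arrays 3 and 4 and changed by 0.75 ± 0.14 (adjusted p = 0.026) for tumour and -0.86 ± 0.14 (adjusted p = 0.0255) for anti-IL-6R. Nusap1, a protein that stabilises spindle microtubules, read 1.45 and 1.20 on the tumour-bearing control arrays, 0.66 and 0.39 with anti-IL-6R in the same host, and 0.65 and 0.66 (control) and 0.96 and 0.67 (anti-IL-6R) without a tumour. Kif20a, a midzone kinesin, read 1.37 and 1.38 on the tumour-bearing control arrays, 0.53 and 0.47 with anti-IL-6R in the same host, and 0.74 and 0.70 (control) and 0.96 and 0.52 (anti-IL-6R) without a tumour. In both the groups of each comparison did not overlap. Nusap1 changed by 0.67 ± 0.14 and -0.80 ± 0.14 (adjusted p = 0.0336 and 0.0267) and Kif20a by 0.66 ± 0.14 and -0.88 ± 0.14 (adjusted p = 0.0322 and 0.0242).

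The other 6 spindle genes spanned a wide range. Tpx2, which activates the Aurora A kinase on the spindle, and the chromokinesin gene Kif4 fell with the antibody, by 0.90 ± 0.16 and 0.83 ± 0.18 on the log2 scale (adjusted p = 0.0268 and 0.0402). Kif2c, a kinesin that takes microtubules apart, and Dlgap5, a spindle protein bound by Aurora A, had antibody changes of -0.71 ± 0.18 and -0.72 ± 0.20 that missed the threshold (adjusted p = 0.0551 and 0.0662). Hmmr, a centrosome and spindle protein, and Kif23, the kinesin of the midzone complex centralspindlin, changed by 0.24 ± 0.12 and -0.23 ± 0.12 and by 0.21 ± 0.10 and -0.31 ± 0.10, past the threshold in neither. Other probes named for Hmmr and Kif23 read differently. The 2 further kept probes of Hmmr had tumour changes of 0.74 and 0.82 and antibody changes of -0.99 and -1.03. The brightest had 0.24 ± 0.12 and -0.23 ± 0.12. For Kif23, a further kept probe had a tumour change of 0.77 and an antibody change of -0.67, and another had 0.06 and 0.19. These probes of both genes were singled out after their values were seen.

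Cytokinesis genes divide the cell once chromosomes have parted. Of 3, 2 rose with the tumour and all 3 fell with the antibody. Anln, which encodes the contractile ring protein anillin, read -0.73 and -0.62 in tumour-free control, 0.22 and -0.03 in tumour-bearing control, -0.44 and -0.76 in tumour-free anti-IL-6R and -0.70 and -0.98 in tumour-bearing anti-IL-6R cells. Its changes were 0.77 ± 0.16 (adjusted p = 0.0302) for tumour and -0.94 ± 0.16 (adjusted p = 0.0255) for anti-IL-6R. Ect2, the exchange factor that activates RhoA at the cell equator, read 0.02 and -0.08 on the tumour-bearing control arrays, -0.75 and -0.82 with anti-IL-6R in the same host, and -0.61 and -0.64 (control) and -0.34 and -0.71 (anti-IL-6R) without a tumour. Racgap1, the partner of Kif23 in centralspindlin, read 2.25 and 2.00 on the tumour-bearing control arrays, 1.63 and 1.47 with anti-IL-6R in the same host, and 1.71 and 1.67 (control) and 1.88 and 1.57 (anti-IL-6R) without a tumour. All 3 were highest on arrays 3 and 4. Ect2 changed by 0.59 ± 0.13 and -0.75 ± 0.13 (adjusted p = 0.043 and 0.0268) and Racgap1 by 0.43 ± 0.13 and -0.57 ± 0.13 (adjusted p = 0.0867 and 0.0432), the tumour change of Racgap1 not passing.

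Anaphase begins when the anaphase-promoting complex (APC/C) marks securin and cyclin B for destruction. Of 4 genes of this step, 1 rose with the tumour and 3 fell with the antibody. Cdc20, the activator of the APC/C in mitosis, read 2.45 and 2.49 in tumour-free control, 3.05 and 2.84 in tumour-bearing control, 2.51 and 2.19 in tumour-free anti-IL-6R and 2.25 and 2.11 in tumour-bearing anti-IL-6R cells. Ube2c, the ubiquitin-conjugating enzyme of the APC/C, read 1.71 and 1.62 in tumour-free control, 2.49 and 2.17 in tumour-bearing control, 1.90 and 1.57 in tumour-free anti-IL-6R and 1.53 and 1.43 in tumour-bearing anti-IL-6R cells. Espl1, the protease separase that cuts cohesin, read 1.26 and 1.01 on the tumour-bearing control arrays, 0.46 and 0.28 with anti-IL-6R in the same host, and 0.61 and 0.61 (control) and 0.84 and 0.46 (anti-IL-6R) without a tumour. For each, arrays 3 and 4 were the highest and array 8 the lowest. Cdc20 changed by 0.47 ± 0.12 and -0.76 ± 0.12 (adjusted p = 0.0614 and 0.0253), Ube2c by 0.66 ± 0.14 and -0.85 ± 0.14 (adjusted p = 0.0335 and 0.0253) and Espl1 by 0.53 ± 0.14 and -0.76 ± 0.14 (adjusted p = 0.0709 and 0.0298), so the rise with the tumour passed for Ube2c alone. Pttg1, which encodes securin, the inhibitor of separase, read 4.50 and 4.40 in tumour-free control, 4.71 and 4.59 in tumour-bearing control, 4.56 and 4.67 in tumour-free anti-IL-6R and 4.64 and 4.48 in tumour-bearing anti-IL-6R cells. Array 3 was its highest, but its treated and control arrays of tumour-bearing mice overlapped, and its changes were 0.20 ± 0.09 (adjusted p = 0.198) for tumour and -0.09 ± 0.09 (adjusted p = 0.527) for anti-IL-6R.

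Chromosome proteins held both ends of the range of tumour changes. Of 6, 4 rose with the tumour and 5 fell with the antibody. Mki67, the proliferation marker that coats mitotic chromosomes, read 3.67 and 3.70 in tumour-free control, 4.66 and 4.26 in tumour-bearing control, 3.90 and 3.59 in tumour-free anti-IL-6R and 3.60 and 3.42 in tumour-bearing anti-IL-6R cells. The tumour-bearing control arrays were the highest and array 3 exceeded array 4 by more than the other pairs of arrays differed. Its tumour change was the largest of the 50, with 0.77 ± 0.15 (adjusted p = 0.024) for tumour and -0.94 ± 0.15 (adjusted p = 0.0242) for anti-IL-6R. Top2a, the topoisomerase that untangles sister chromatids, read 3.17 and 2.95 on the tumour-bearing control arrays, 2.32 and 2.11 with anti-IL-6R in the same host, and 2.53 and 2.57 (control) and 2.72 and 2.22 (anti-IL-6R) without a tumour. It changed by 0.51 ± 0.16 and -0.85 ± 0.16 (adjusted p = 0.0997 and 0.0303), the first not past the threshold. Condensin, the complex that compacts mitotic chromosomes, is represented by Ncapg, Ncapd2, Smc2 and Smc4.

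Ncapg read 1.60 and 1.34 on the tumour-bearing control arrays, 0.74 and 0.69 with anti-IL-6R in the same host, and 0.82 and 1.00 (control) and 1.01 and 0.80 (anti-IL-6R) without a tumour. Ncapd2 read 3.73 and 3.64 on the tumour-bearing control arrays, 3.10 and 2.94 with anti-IL-6R in the same host, and 3.13 and 3.24 (control) and 3.34 and 3.09 (anti-IL-6R) without a tumour. Smc2, an ATPase of the complex, read 1.93 and 2.07 on the tumour-bearing control arrays, 1.57 and 1.58 with anti-IL-6R in the same host, and 1.70 and 1.54 (control) and 1.79 and 1.69 (anti-IL-6R) without a tumour. For these 3 the tumour-bearing control arrays were again above the other 6. Ncapg changed by 0.56 ± 0.12 and -0.76 ± 0.12 (adjusted p = 0.0362 and 0.0253), Ncapd2 by 0.50 ± 0.10 and -0.66 ± 0.10 (adjusted p = 0.0326 and 0.0248) and Smc2 by 0.38 ± 0.09 and -0.42 ± 0.09 (adjusted p = 0.04999 and 0.0403). Smc4, the other ATPase and partner of Smc2, did not move with them. It read 4.62 and 4.54 in tumour-free control, 4.45 and 4.49 in tumour-bearing control, 4.79 and 4.57 in tumour-free anti-IL-6R and 4.50 and 4.46 in tumour-bearing anti-IL-6R cells, and its changes were -0.11 ± 0.09 (adjusted p = 0.514) for tumour and 0.01 ± 0.09 (adjusted p = 0.956) for anti-IL-6R. Smc4 was the only one of the 50 whose tumour-bearing control arrays lay below both tumour-free control arrays, an order that 22.9% of all genes had.

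**Figure D3:**
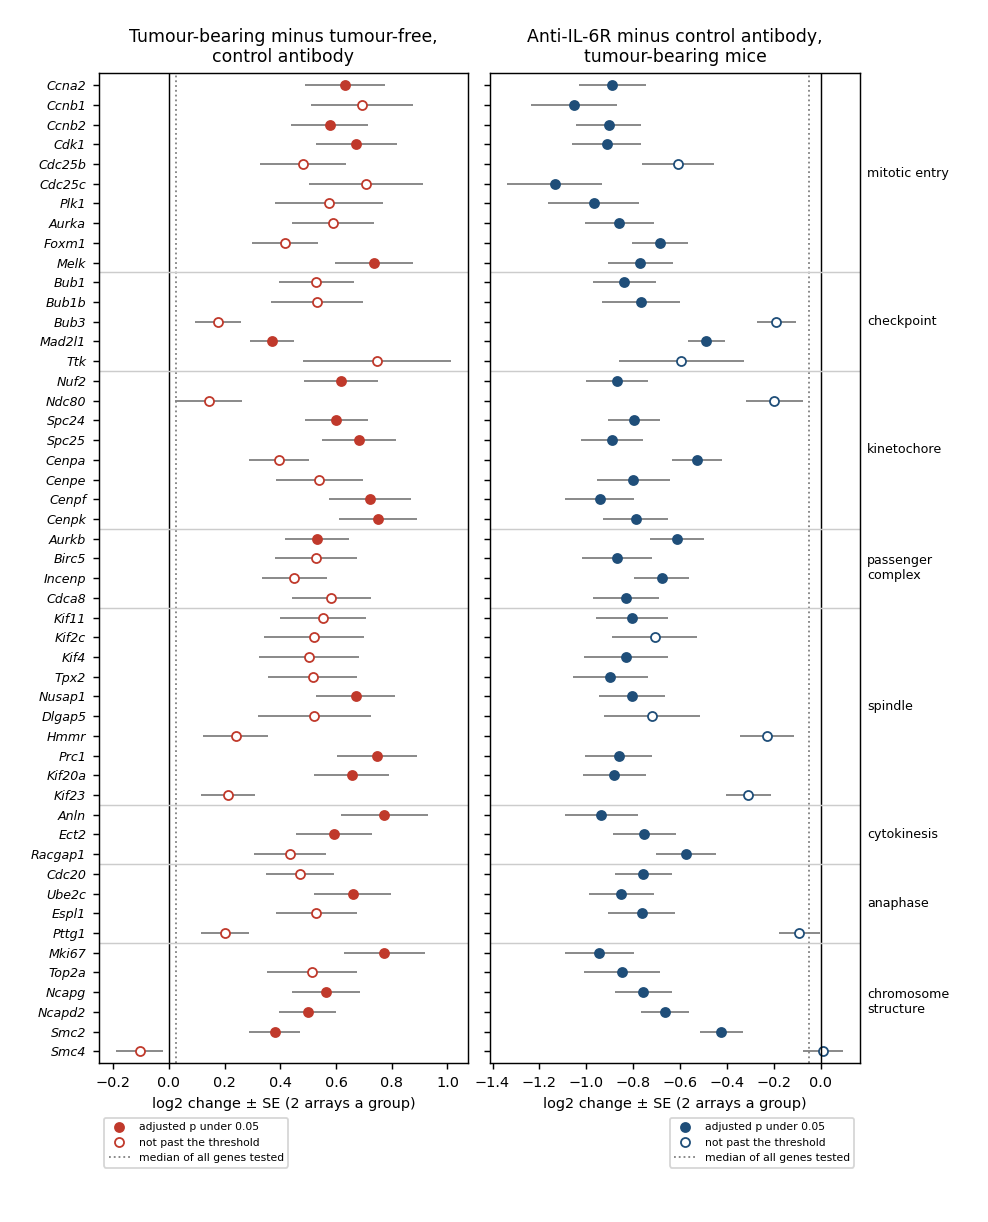
Log2 change ± SE (x axis, 2 arrays a group) of each of the 50 genes (rows, by role) for tumour-bearing against tumour-free mice under control antibody (left) and anti-IL-6R against control antibody in tumour-bearing mice (right); filled points passed an adjusted p of 0.05. Filled points number 21 on the left and 40 on the right, and Smc4 is the single gene on the far side of 0 in each panel.

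Different probes of 1 gene mostly had the same direction. The 50 genes had 89 probes above background in both arrays of at least 1 group, and 25 genes had more than 1. Of the 89, 84 had a tumour change above 0 and 84 an antibody change below 0. Counted by gene, 54.9% of all genes tested had a tumour change above 0, and 12437 of 21519 an antibody change below 0. Dim probes of Prc1 and Ttk among the 89 were well above background on only 2 or 3 arrays. They were kept through 1 group alone, so their signs are no separate evidence. Probes of 1 gene share the same samples and are not independent. Probes of Pttg1 and Top2a differed in sign for the tumour, with a dimmer probe at -0.37 for Pttg1 and 1 at -0.11 for Top2a. For the antibody, probes of Dlgap5, Kif23, Pttg1 and Smc4 differed in sign. For Dlgap5 they differed by more than 1, at -0.72 for the brightest and 0.59 for a dimmer probe designed to another transcript entry.

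In tumour-free mice levels of the mitosis genes with and without anti-IL-6R lay close together. By limma 0 of the 50 genes passed, with 0.0186% of all genes passing and a smallest adjusted p of 0.631. At an unadjusted p under 0.05 lay 0 of the 50, and 1705 of all 21519 genes. The median change was 0.02, against 0.03 over all genes, with 30 genes above 0 (58.5% of all genes were) and 20 below and a range from -0.14 to 0.24. The 2 arrays of this group stood apart: array 5 was above array 6 for 49 of the 50 genes, where 55.7% of all genes had that order. The gap, array 6 minus array 5, had a median of -0.32 for the 50 and -0.02 over all genes. Among the other pairs, array 1 was above array 2 for 32 genes (63.3% of all genes), array 3 above array 4 for 44 (37.6%) and array 7 above array 8 for 43 (60.4%). The median change was -0.12 without array 5 and 0.19 without array 6, so its sign rested on single arrays, and it was -0.01 after quantile normalization.

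Under anti-IL-6R, mitosis genes lay slightly lower in tumour-bearing than in tumour-free mice, with no gene past the threshold. By limma 0 of 50 genes passed, with 0.307% of all genes passing and a smallest adjusted p of 0.386. At an unadjusted p under 0.05 lay 5 of the 50, and 1716 of all 21519 genes. The changes lay below 0 for 49 genes and above 0 for 1, where 38.3% of all genes lay above 0, and the median was -0.23, against -0.06 over all genes. Arrays of tumour-bearing mice were below both arrays of tumour-free mice for 20 of 50 genes, where 34.4% of all genes had that order. Birc5 had the largest difference, -0.40 ± 0.15, and Hmmr was the single gene above 0, at 0.14 ± 0.12. Mad2l1 had the smallest adjusted p, with -0.30 ± 0.08 (adjusted p = 0.386). The median was -0.06 without array 5, against -0.05 over all genes, and -0.38 without array 6, against -0.07. The lower level of the 50 beside all genes therefore rested largely on array 5.

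Whether the antibody changed mitotic genes differently in the 2 hosts was tested directly by the interaction term, the antibody change in tumour-bearing minus that in tumour-free mice. All 50 values were below 0, where 39.1% of those of all genes were above 0. The median was -0.82, against -0.09 over all genes. By limma 44 of the 50 had an unadjusted p under 0.05, as did 5408 of all 21519 genes. After adjustment over all genes 0 of 50 passed by limma, where 0.0418% of all genes did, and the smallest adjusted p was 0.0737. The values ran from -1.01 ± 0.26 for Ccnb1 to -0.09 ± 0.12 for Smc4. Mad2l1 and Spc24 had the smallest adjusted p, with -0.67 ± 0.11 and -0.88 ± 0.16. Without array 6 the count was 29 of 50, without array 4 or 7 it was 1, and without any other array it was 0.

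**Figure D4:**
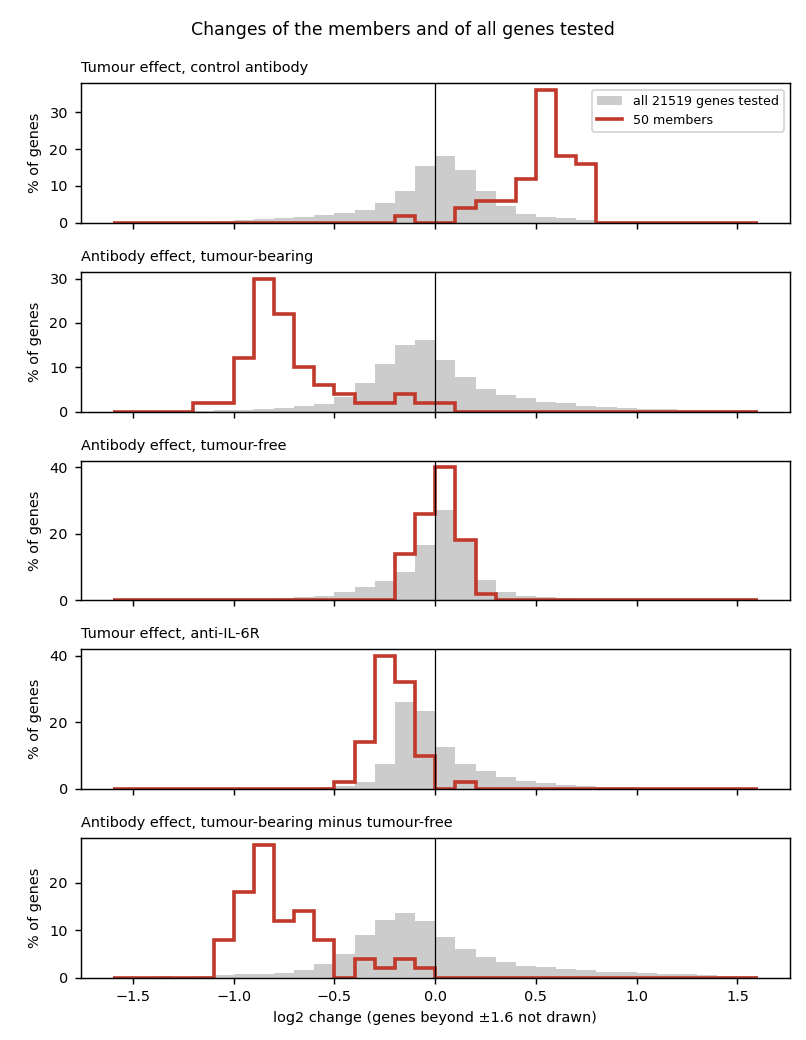
Share of genes (y axis, percent) by log2 change (x axis, bins of 0.1) for all 21519 genes tested (grey) and the 50 mitosis genes (red line), in the 5 comparisons. The red line is centred near 0.54 and -0.79 in the upper 2 panels, near 0 for the antibody in tumour-free mice, at -0.23 for the tumour-bearing against tumour-free comparison under anti-IL-6R and at -0.82 for the interaction.

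Other cell cycle genes were set beside the 50. By mean log2 level, each list in this paragraph and the next was highest on arrays 3 and 4, as the 50 were. Of 56 further mitosis genes, 16 rose with the tumour (median change 0.49) and 29 fell with the antibody (median -0.69), with 0 in the opposite direction. Over all genes tested, 4.26% rose and 1.97% fell with the tumour, with a median change of 0.03. With the antibody 2.04% of all genes rose and 3.82% fell, with a median of -0.05. Pbk, a mitotic kinase, changed by 0.90 ± 0.13 and -0.83 ± 0.13, Ckap2, a microtubule protein, by 0.70 ± 0.11 and -0.80 ± 0.11, and Ncaph, another condensin subunit, by 0.70 ± 0.11 and -0.83 ± 0.11. Of 15 subunits and regulators of the APC/C, 2 rose and 2 fell, with medians of 0.09 and -0.17. Fzr1, the activator of the APC/C after mitosis, changed by 0.52 ± 0.11 and -0.52 ± 0.11. Ube2s, which extends ubiquitin chains for the APC/C, rose by 0.34 ± 0.07 and had an antibody change of 0.01 ± 0.07. Of 11 subunits of the DREAM and MuvB complexes 1, Tfdp2, rose (0.63 ± 0.11) and 3 fell, with medians of 0.12 and -0.17.

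Genes of earlier cell cycle phases had smaller medians than the 50 in both comparisons. Of 18 measured regulators of the step from G1 to S phase, 6 rose with the tumour and 10 fell with the antibody, with medians of 0.28 and -0.38. E2f1 and E2f7, transcription factors of that step, changed by 0.63 ± 0.10 and 1.16 ± 0.16 with the tumour and by -0.71 ± 0.10 and -0.93 ± 0.16 with the antibody. Cdkn2c, an inhibitor of the kinases of G1, also rose by 0.94 ± 0.10 and fell by 0.66 ± 0.10. Of 36 DNA replication genes, 8 rose and 1, Slbp, fell with the tumour (median 0.33), and 20 fell with the antibody (median -0.42). Orc1, a subunit of the origin recognition complex, changed by 1.29 ± 0.17 and -1.03 ± 0.17, more than any of the 50 did with the tumour. The differences between lists were not tested.

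These list counts rested on single arrays as those of the 50 did. For the further mitosis genes the count passing with the antibody was 0 without array 3 or 8, 11 to 19 without array 1, 2, 4 or 7 and 29 to 33 without array 5 or 6, and that with the tumour was 1 without array 3, 2 without array 2, 5 to 8 without array 1, 4 or 7 and 11 to 19 without any other. For DNA replication, 0 passed with the antibody without array 3 or 8, 4 without array 4, 8 without array 1 or 2 and 13 to 19 without any other, while 9 genes passed with the tumour in either direction, 1 without array 2 or 3, 3 without array 4, 5 without array 1 and 7 to 12 otherwise. For the step from G1 to S phase, 0 passed with the antibody without array 8, 1 without array 3, 5 without array 4 and 7 to 8 without any other, and with the tumour 2 to 6, the lowest without array 3. For the APC/C and for the DREAM and MuvB list the counts with the antibody were 0 without array 1, 2, 3 or 8.

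Markers of other cell types also moved between these groups. Here a summed level is the log2 of the sum of a list's signals on an array. Of all 21519 genes tested, 4.26% rose and 1.97% fell with the tumour, and 2.04% rose and 3.82% fell with the antibody. At an unadjusted p under 0.05 by limma lay 5303 of them for the tumour and 6303 for the antibody. All 13 measured of 14 pan T cell markers lay well above background on all arrays, and their summed level was 9.95 to 10.11 in tumour-free control, 10.19 to 10.23 in tumour-bearing control, 10.07 to 10.13 in tumour-free anti-IL-6R and 9.89 to 10.05 in tumour-bearing anti-IL-6R cells. With the tumour 1 of the 13 rose, with a median of 0.18. With the antibody 0 of 13 passed by limma (8 at an unadjusted p under 0.05), with a median of -0.24. By mean log2 level the pan T cell markers were highest on arrays 3 and 4, at 6.24 to 6.28 against 5.98 to 6.22 on the other 6. Of 16 measured of 17 erythroid markers, 11 rose with the tumour (median 2.35) and 8 fell with the antibody (median -1.44). Rhag and Epb42 among them were well above background on few arrays. Their summed level was 7.93 to 8.74 in tumour-free control, 9.10 to 9.67 in tumour-bearing control, 9.15 to 9.39 in tumour-free anti-IL-6R and 9.09 to 9.37 in tumour-bearing anti-IL-6R cells. By the mean of their log2 levels the erythroid markers, like the mitosis genes, were highest on arrays 3 and 4, at 1.39 to 2.25 against -0.85 to 0.68 on the other 6. The count falling with the antibody was 1 without array 3 or 8, 5 without array 1 or 2 and 8 to 9 otherwise, and the count rising with the tumour was 7 to 12, the lowest without array 3. With the antibody in tumour-free mice the erythroid median was 1.04, beside a median of 0.02 for the 50 mitosis genes. Of the 16, 14 changes were above 0 (58.5% of all genes were), and 0 passed the threshold, where 0.0186% of all genes passed. By limma 9 of the 16 had an unadjusted p under 0.05, beside 0 of the 50 and 1705 of all 21519 genes.

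Neutrophil markers were, by their mean level, highest on arrays 3 and 4, at 1.34 to 1.37 against -1.02 to -0.33 on the other 6. Of 15 measured of 16, 8 rose with the tumour (median 1.98) and 7 fell with the antibody (median -1.81), and their summed level was 7.22 to 7.56, 7.81 to 7.83, 7.15 to 8.05 and 7.39 to 7.40 in the same group order, so that by sum array 6 was the highest. Of 8 plasma cell markers, 5 rose (median 1.41) and 1 fell (median -0.56), with summed levels of 4.61 to 4.65, 5.45 to 5.57, 4.55 to 4.81 and 5.01 to 5.11. Their mean log2 level too was highest on arrays 3 and 4, at 0.47 to 0.81 against -0.70 to 0.09 on the other 6. The 12 B cell markers moved the other way: 6 fell with the tumour (median -0.87) and 4 rose with the antibody (median 0.71), with summed levels of 5.67 to 6.05, 4.89 to 5.43, 5.80 to 5.80 and 5.75 to 5.83. Of 8 NK cell markers, 1 rose and 3 fell with the tumour, 3 rose with the antibody, and summed levels were 3.93 to 4.02, 3.42 to 3.48, 4.16 to 4.199 and 3.85 to 4.03. Among the 10 measured of 11 macrophage and dendritic cell markers 0 passed in either comparison by limma (4 and 6 at an unadjusted p under 0.05), with summed levels of 9.35 to 9.36, 8.95 to 9.32, 9.34 to 9.48 and 9.51 to 9.57. Cd8a and Cd8b1 passed in neither, with summed levels of 3.00 to 3.01, 2.47 to 3.03, 2.84 to 3.02 and 2.48 to 2.75. Some markers lay well above background on few arrays: Rhag and Prtn3 on 2, Epb42, Sdc1 and Tnfrsf17 on 3, Ngp and Ctsg on 4. Those on 2 or 3 passed the filter through 1 group alone, so a higher level in that group was partly fixed in advance. The counts and medians of their lists include them. Without 1 array the counts passing with the tumour and the antibody ran over 7 to 12 and 4 to 11 for neutrophil, 2 to 5 and 0 to 2 for plasma cell, 0 to 6 and 0 to 4 for B cell and 3 to 4 and 3 for NK cell markers. For macrophage and dendritic cell markers 5 passed in each comparison without array 3, and 3 pan T cell markers passed with the antibody without array 7. The part of these cell types in the changes of the mitosis genes was not tested.

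**Figure D5:**
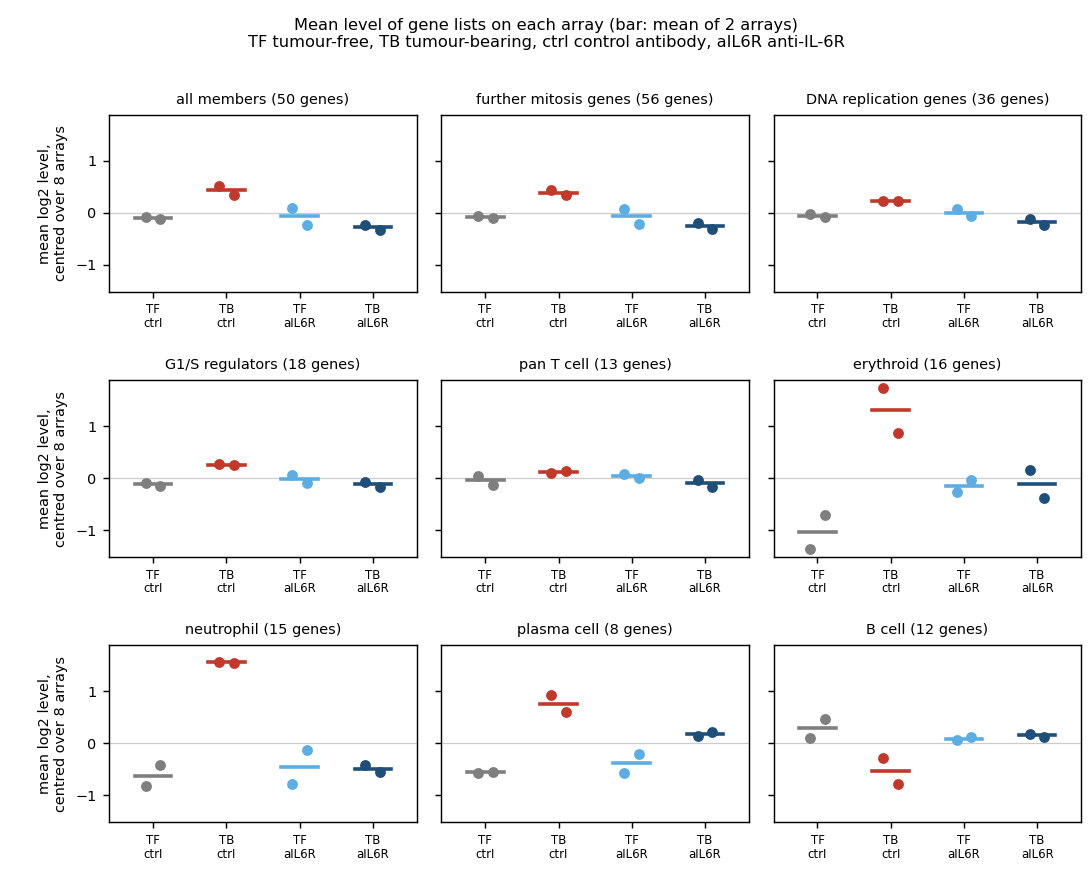
Mean log2 level of 9 gene lists on each array, centred over the 8 arrays (y axis), by group (x axis); points are arrays and bars are means of 2 arrays. Every list but the B cell markers is highest on both arrays of tumour-bearing control mice. Erythroid markers are lowest in tumour-free control mice, and B cell markers are lowest in tumour-bearing control mice.

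All 8 arrays were on 1 slide and 1 scan, with the control antibody arrays in 1 slide column, the anti-IL-6R arrays in the other, tumour-free samples in rows 1 and 2 and tumour-bearing samples in rows 3 and 4. Slide position and group therefore cannot be told apart. The share of probes well above background was 53.1% to 59.8% per array, and 0 spots were saturated. The correlation of log2 signals across the genes tested was 0.993 to 0.994 within groups and 0.978 to 0.992 between groups.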

How the data were processed

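Each of the 8 CD4+ T cell samples was hybridised, as cRNA made from 0.1 µg of RNA, to its own one-colour array. The authors deposited spot intensity values, extracted by version 10.10.1.1 of Agilent Feature Extraction per the submitters' processing notes. Spot signals were, per the file headers, background-subtracted and detrended, with surrogate values for dim spots and without dye normalization. A second deposited file gives log2 values per probe. Each of its columns matched the log2 processed signal of its array less the 75th percentile (Pearson's r of 1, offset SD 0.00029), so scale and centring follow from that match. Its column medians lie between -3.34 and -3.09.

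From the scanner files, outlier spots (60 to 95 per array) were dropped, spots of a probe averaged, and log2 signals taken minus the array's 75th percentile. Of 56587 probes, 32986 were named by accession through the RefSeq gene list, 10740 by symbol or synonym, and 12861 kept the name in the file, while 18 probes without a usable spot on every array were left out. Probes called well above background in both replicates of any group were kept, 32039 in all, and the brightest stood for a gene. The number of arrays limits the precision. The fit used limma 3.58.1 (R 4.3.3, with data.table version 1.17.8) with 4 group means over all 8 arrays, 4 residual and 4.16 prior degrees of freedom and an intensity trend. Tests were two-sided, adjusted by Benjamini-Hochberg over 21519 genes at 0.05, and were checked on simulated data. Alternatives were quantile normalization, normexp background correction with an offset of 50, other filters and variance models, 2-group fits, mean over probes, the deposited log2 values, and leaving out each array.

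The members and gene lists were chosen with earlier results of these data known. Values on every array are given for up to 4 members of each role with the smallest tumour p among those past the threshold, plus 12 well-known members. Pttg1 and Smc4, which passed in no comparison, were added after their values were seen. From the other cell cycle lists, up to 4 genes with the smallest tumour p could be named. Members whose probes differ in sign or by more than 1 are named. Promoter windows came from RefSeq (GRCm38.p6), and the 10 members without one were Spc24, Dlgap5, Foxm1, Cdc25c, Aurkb, Incenp, Smc4, Kif20a, Tpx2 and Ccna2. Of several windows of a gene, the one with most TTTGAA in the bases shown was printed. Figures and files were made with Python 3.11.15, pandas 2.3.3, numpy 2.4.6 and matplotlib 3.10.9.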

Additional observations from a re-analysis of the deposited data

Results flagged for a closer look

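No mitosis gene had an antibody effect that differed between hosts past the threshold. Among the marker genes set beside them, 4 neutrophil granule genes did, by the interaction term of the limma fit, whose value is the antibody change in tumour-bearing minus that in tumour-free mice. The interaction of Camp was -4.42 ± 0.33 (adjusted p = 0.0174), that of Ltf was -5.23 ± 0.48 (adjusted p = 0.0273), that of Ngp was -5.34 ± 0.45 (adjusted p = 0.0204) and that of Mpo was -2.56 ± 0.28 (adjusted p = 0.0464). Camp was well above background on all 8 arrays, Ltf on 7, Mpo on 6 and Ngp on 4. The sizes, standard errors and p-values for the last 3 therefore rest partly on dim values and are not exact.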

How the results depend on the processing

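The 21 genes higher with the tumour and the 40 lower with anti-IL-6R in tumour-bearing mice became 2 and 0 with no dim-probe filter. That setting tests 36997 genes, of which 569 and 25 passed in either direction, against 1342 and 1261 of 21519 in the main fit. Without the variance trend the counts were 0 and 0 (smallest adjusted p 0.0506 and 0.0608), beside 621 and 87 of all 21519 genes. Each comparison then had 44 of the 50 at an unadjusted p under 0.05. Array weights left 5 of the first, beside 764 of all genes. The cause of the losses without the trend and with array weights was not tested. For the further mitosis genes, the DNA replication genes and the regulators of the G1 to S step, 5, 3 and 5 passed for the tumour and 0 in each list for the antibody with no filter, and 7, 3 and 4 and 0, 1 and 1 without the trend. Leaving out each array in turn gave 0 to 29 genes for the tumour, 0 to 40 for the antibody and 0 to 29 for the interaction, which is 0 with all arrays. Where a group was left with 1 array, it was assumed to vary like the others. The median change ran from -0.12 (reversed, without replicate 5) to 0.19 for the antibody in tumour-free mice, from -0.380 to -0.0619 for the tumour under anti-IL-6R and from -1.01 to -0.63 for the interaction. The tumour and antibody medians stayed within 0.50 to 0.55 and -0.79 to -0.69 under the other settings. Among single genes, Pttg1 turned to 0.00735 for the antibody with quantile normalization and to -0.0864 for the tumour and 0.164 for the antibody with the mean of its probes. Smc4, at 0.00877 for the antibody, turned to -0.0418 with the mean of its probes and ran from -0.0124 (without replicate 7, also below 0 at -0.0118 without replicate 3) to 0.0299 (without replicate 8). No paired analysis was possible, because the replicate numbers 1 to 8 are not shared between groups and which arrays share an experiment is not stated. Any difference between the 2 experiments was therefore not modelled and may lie in the standard errors and p-values. With 2 arrays a group and 1 slide, the number of arrays limits every count.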
